A study of Mus musculus with 6 samples.

Results

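Krüppel-like factors (Klf) are zinc finger transcription factors that bind GC-rich and CACCC-type sequences, and *Klf2* is known for keeping resting T cells in circulation. KLF2 activates *S1pr1*, which encodes the receptor for sphingosine 1-phosphate (S1P). T cells leave lymph nodes toward the S1P of lymph and blood through this receptor, and the activation antigen CD69 binds the receptor and takes it off the surface, so that cells stay. The 8 genes described here, out of 45777 in the tables, were listed by name: the factors *Klf2*, *Klf3*, *Klf4*, *Klf6*, *Klf7* and *Klf13*, the receptor *S1pr1*, and *Cd69*. All 8 were among the 16123 genes that passed the filter on low counts.

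Bulk RNA was sequenced from CD4+Lrig1+ and CD4+Lrig1- T cells, sorted from the spleens of female C57BL/6 mice of 7 weeks. The sources give no treatment for these animals, and the groups, called Lrig1+ and Lrig1- T cells below, share strain, sex, age and organ. Lrig1 is a surface protein that the study uses to mark CD4+ T cells with suppressive function. Of the 6 samples in the labels, 3 per group, the 2 tables used here hold 4 libraries, with 1 of each group per table (set 1 and set 2). Whether a library came from 1 mouse or from pooled mice is not given in the sources used here, so a p-value cannot be read as measuring the spread between mice.

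The 4 libraries held 44865070 to 59977951 estimated counts. *Lrig1* itself, which checks the sort, had 75.4 CPM (counts scaled to library size, TMM-normalized) in Lrig1- and 221 in Lrig1+ T cells of set 1, and 36.7 and 129 in set 2. The T cell genes *Cd3e* and *Cd4* were at 453 to 632 and 924 to 1100 CPM, so the sorted cell type was present in each library. *Foxp3*, the lineage factor of regulatory T (Treg) cells, was at 589 and 615 CPM in Lrig1+ against 48.9 and 30.7 in Lrig1- T cells, so the comparison is also one of a Treg-rich with a Treg-poor population. Fewer cells of a kind and less RNA per cell cannot be told apart in such samples.

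Most of the members were lower in Lrig1+ T cells. Of the 8, 7 were lower in both sets and 0 were higher in both, against 41.3% lower and 36.5% higher in both among all genes tested. The median log2 ratio (Lrig1+ over Lrig1-) was -0.46 in set 1 and -0.56 in set 2 for the members, and 0.01 and -0.06 for all genes tested. In CPM, both Lrig1+ libraries lay under both Lrig1- libraries for 4 members (*S1pr1*, *Klf2*, *Klf13* and *Klf6*), a separation seen for 11.8% of genes tested. On the length-scaled levels (TPM) given further on, *Klf13* and *Klf6* overlapped. Their Lrig1+ libraries of set 1 (136 and 101 TPM) lay above their Lrig1- libraries of set 2 (107 and 71.9 TPM).

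edgeR's quasi-likelihood test on the groups alone called none of the members, and 0% of all genes higher and 0% lower, at a Benjamini-Hochberg adjusted p under 0.05. At an unadjusted p under 0.05 it had 674 genes higher and 227 lower, none of them members. The same test with set as an added term, which compares the groups inside each set, called 6 of the 8 members lower and 0 higher. Over all genes tested it called 12.8% lower and 14.6% higher. This fit takes out the difference between sets and leaves 1 residual degree of freedom. Its p-values therefore lean on variance estimates shared over genes. Below, an adjusted p is from this fit unless stated, and in the group-only test every member had an adjusted p of 1.00.

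**Figure D1:**
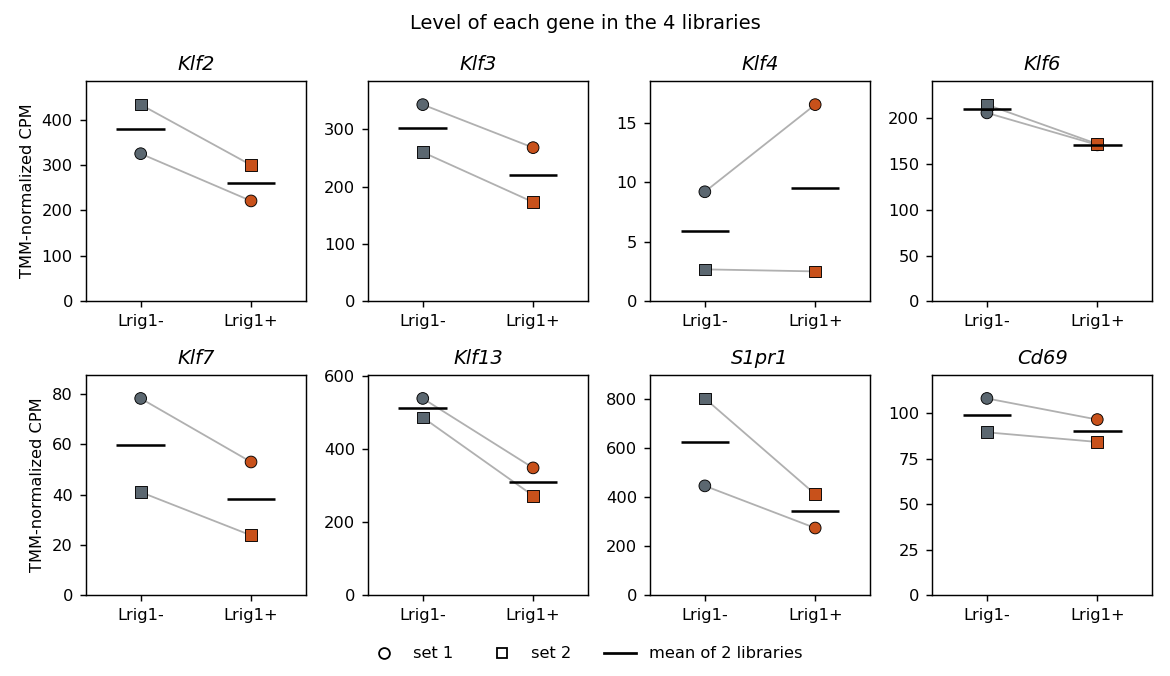
TMM-normalized CPM (vertical axis, from 0) of the 8 genes in Lrig1- (grey) and Lrig1+ (orange) T cells. Circles are set 1, squares are set 2, a grey line joins the libraries of a set, and a bar marks the mean of 2 libraries. The lines slope down for all genes but *Klf4*, which is higher in Lrig1+ in set 1 only, and the slope is slight for *Cd69*.

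The receptor gene *S1pr1* (gene ID 13609, chromosome 3 from 115710433 to 115715055 of GRCm38) showed the largest difference of the 8 in each set apart from that of *Klf4* in set 1. It had 446 CPM in Lrig1- and 274 CPM in Lrig1+ T cells of set 1, and 803 and 412 CPM in set 2. The level was 1.63-fold and 1.95-fold lower in Lrig1+ T cells, and the groups did not overlap although set 2 was higher in both of them. The log2 fold change was -0.83 (standard error 0.10, adjusted p = 0.00105, quasi-likelihood test). On the groups alone it was -0.86 with a standard error of 0.50.

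*Cd69* (gene ID 12515, chromosome 6 from 129267324 to 129275375) encodes the partner that removes this receptor from the surface. Its levels were 108 and 96.4 CPM in the Lrig1- and Lrig1+ T cells of set 1 and 89.4 and 84.1 CPM in set 2. The groups overlapped, and the log2 fold change of -0.13 (standard error 0.07) was not called (adjusted p = 0.219, quasi-likelihood test). Inside a set the log2 ratio was -0.17 (95% interval -0.22 to -0.11) and -0.09 (-0.15 to -0.03), where the exact binomial intervals cover counting error only. As a quotient of length-scaled levels (TPM), *S1pr1* was at 2.29 and 4.82 times *Cd69* in Lrig1- T cells of set 1 and set 2, and at 1.58 and 2.63 times in Lrig1+ T cells. The RNA of *S1pr1* thus exceeded that of *Cd69* in all 4 libraries, by less in the Lrig1+ library of each set. These RNA values do not give the levels of the proteins.

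Upstream sequence is given for the 4 Klf genes that have a single transcript and a promoter entry from RefSeq (GRCm38.p6), which held 6 of the 8 members. The genes *S1pr1* and *Cd69* had no entry. Shown are the 250 bases before the start, 5′ to 3′ on the gene's strand. Capitals mark CACCC on either strand (GGGTG on the strand shown), the core letters that Klf factors bind, and the consensus of MEF2, the factor through which the kinase ERK5 is known to induce *Klf2*. No 2 marked motifs overlap.
Klf2, plus strand, chr8:72318812-72319061: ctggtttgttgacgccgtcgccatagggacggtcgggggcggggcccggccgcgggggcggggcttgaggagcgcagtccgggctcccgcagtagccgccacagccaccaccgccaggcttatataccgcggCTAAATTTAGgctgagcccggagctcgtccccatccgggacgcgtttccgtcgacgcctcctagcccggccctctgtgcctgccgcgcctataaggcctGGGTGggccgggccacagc
Klf13, minus strand, chr7:63938916-63939165: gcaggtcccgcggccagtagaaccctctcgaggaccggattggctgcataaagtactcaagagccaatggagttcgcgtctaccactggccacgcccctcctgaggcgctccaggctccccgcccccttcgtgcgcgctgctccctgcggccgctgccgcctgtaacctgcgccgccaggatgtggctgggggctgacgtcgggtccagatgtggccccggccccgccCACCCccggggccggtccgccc
Klf6, plus strand, chr13:5861239-5861488: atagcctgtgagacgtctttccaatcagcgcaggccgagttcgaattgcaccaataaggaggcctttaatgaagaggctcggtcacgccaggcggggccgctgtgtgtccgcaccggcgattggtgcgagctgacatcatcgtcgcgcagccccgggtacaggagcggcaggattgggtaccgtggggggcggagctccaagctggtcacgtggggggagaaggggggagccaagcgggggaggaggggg
Klf4, minus strand, chr4:55532476-55532725: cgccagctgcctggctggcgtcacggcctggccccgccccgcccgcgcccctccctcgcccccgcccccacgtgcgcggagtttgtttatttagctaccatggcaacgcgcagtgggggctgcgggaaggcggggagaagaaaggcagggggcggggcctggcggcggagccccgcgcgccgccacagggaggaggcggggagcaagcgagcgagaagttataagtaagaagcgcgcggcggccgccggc

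The *Klf2* window holds the MEF2 consensus 118 bases before the start and a CACCC core 19 bases before it, and the *Klf13* window holds a CACCC core 22 bases before the start. The *Klf6* and *Klf4* windows hold neither. Of 32851 RefSeq promoter windows of this length, 52.0% hold CACCC on either strand and 2.92% hold the MEF2 consensus. The FOXO core TGTTTAC, searched on both strands, was in 3.17% of the windows and in none of the 6 of the members. GC content was 71.2% for *Klf2*, 71.6% for *Klf13*, 64.8% for *Klf6* and 74.0% for *Klf4*, against a median of 52.4% over all windows. These are matches of letters, and binding was not measured.

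*Klf2* (gene ID 16598, chromosome 8 from 72319062 to 72321654), the activator of *S1pr1*, had 325 and 221 CPM in the Lrig1- and Lrig1+ T cells of set 1 and 433 and 300 CPM in set 2. The fold was close to the same in the sets, at 1.47 and 1.44, and the groups did not overlap. Its log2 fold change was -0.54 (standard error 0.08, adjusted p = 0.00277, quasi-likelihood test). As with *S1pr1*, the CPM of both groups was higher in set 2 than in set 1, by 0.42 and 0.44 on the log2 scale. On the TPM scale given further on neither gene was higher in set 2, so a level is to be compared inside a set.

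*Klf13* (gene ID 50794, chromosome 7 from 63886351 to 63938915), a factor known to activate the chemokine gene *Ccl5* in T cells, had the largest decrease of the Klf genes. It was at 538 and 348 CPM in set 1 and at 486 and 272 CPM in set 2, in the Lrig1- and Lrig1+ T cells, so the groups did not overlap in CPM. The log2 fold change was -0.73 (standard error 0.09, adjusted p = 0.00132, quasi-likelihood test), a fold of 1.55 in set 1 and 1.78 in set 2.

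*Klf3* (gene ID 16599, chromosome 5 from 64803316 to 64832072 as the tables give it), a repressor that works with the CtBP corepressors, had 343 and 268 CPM in set 1 and 260 and 173 CPM in set 2. It was lower in Lrig1+ T cells inside each set, but the Lrig1+ library of set 1 lay above the Lrig1- library of set 2, so the groups overlapped. Its log2 fold change was -0.47 (standard error 0.09, adjusted p = 0.00797, quasi-likelihood test). Without a filter on low counts, where more genes are tested, the adjusted p of the same test was 0.0550, above the threshold.

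*Klf7* (gene ID 93691, chromosome 1 from 64029448 to 64122345), a factor named for its broad expression, was less abundant. It had 78.3 and 53.0 CPM in set 1 and 41.0 and 23.8 CPM in set 2, again with a step between sets, which was larger than the step between groups. The log2 fold change was -0.67 (standard error 0.09, adjusted p = 0.00163 from the quasi-likelihood test). The tables list 7 transcripts of this gene that differ mainly at their 5′ ends. In set 1 a pair of them took 45.6% and 49.3% of its counts in Lrig1- and 48.0% and 46.5% in Lrig1+ T cells, whereas in set 2 the second of them took 22.3% and 96.2%. With only the most abundant transcript of each gene, the log2 fold change on the groups alone was -0.07, against -0.64 over all transcripts, so the sum and not a transcript is the value to read for *Klf7*.

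*Klf6* (gene ID 23849, chromosome 13 from 5861489 to 5870393), an early response factor of many tissues, differed least among the 5 Klf genes called. Its levels in the sets were almost the same, 206 and 215 CPM in Lrig1- and 171 and 172 CPM in Lrig1+ T cells, so the groups did not overlap in CPM. On the groups alone the log2 fold change was -0.30 with a standard error of 0.29. With set as a term it was -0.30 (standard error 0.07, adjusted p = 0.0244, quasi-likelihood test), a fold of 1.21 in set 1 and 1.25 in set 2. Without a filter on low counts the adjusted p of this test was 0.0765, above the threshold.

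*Klf4* (gene ID 16600, chromosome 4 from 55527137 to 55532475), a pluripotency factor that also restrains T cell proliferation and is abundant in monocytes, was the exception. It had 9.19 CPM in Lrig1- and 16.5 CPM in Lrig1+ T cells of set 1, from 440 and 859 counts, and 2.68 and 2.51 CPM in set 2, from 145 and 144 counts. The log2 ratio was 0.84 in set 1 (counting interval 0.68 to 1.02) and -0.10 in set 2 (-0.44 to 0.24). The sets differed in *Klf4* by more than the groups did, and the log2 fold change of 0.44 (standard error 0.23) was not called (adjusted p = 0.205, quasi-likelihood test).

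**Figure D2:**
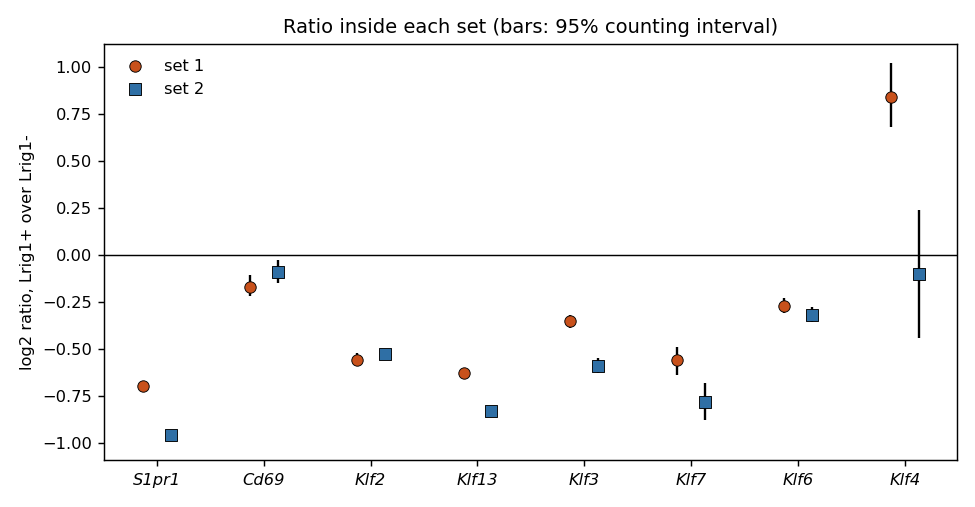
Log2 ratio of TMM-normalized CPM, Lrig1+ over Lrig1-, (vertical axis) for each gene, in set 1 (orange circles) and set 2 (blue squares). Vertical lines are 95% exact counting intervals, often smaller than the symbol. Both symbols lie under 0 for 7 genes, from -0.09 for *Cd69* to -0.96 for *S1pr1* in set 2, and *Klf4* lies at 0.84 and -0.10.

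Levels of different genes can be compared only per length. On the TPM scale, as the authors' tables give it and summed over transcripts, *Klf2* was the most abundant member by its mean over the 4 libraries, with 459 and 337 TPM in Lrig1- and 304 and 252 TPM in Lrig1+ T cells of set 1 and set 2. *S1pr1* followed with 378 and 374 TPM against 226 and 207 TPM, and was under *Klf2* in 3 of the 4 libraries. The next 4 genes had overlapping ranges, from 64.7 to 226 TPM for *Klf3*, 64.9 to 216 for *Klf13*, 77.5 to 165 for *Cd69* and 62.3 to 125 for *Klf6*. *Klf3* exceeded *Klf13* in 2 of 4 libraries, and *Klf13* exceeded *Cd69* in 2 of 4, so these 3 could not be ordered, while *Cd69* exceeded *Klf6* in all 4. *Klf7* ranged from 4.97 to 32.6 TPM and *Klf4* from 1.24 to 13.5 TPM, and *Klf4* was the lower of the pair in all 4 libraries. The 6 Klf members made up 90.0% to 94.5% of the summed TPM of the 17 Klf genes listed, and *Klf2* alone 36.9% to 51.3%.

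**Figure D3:**
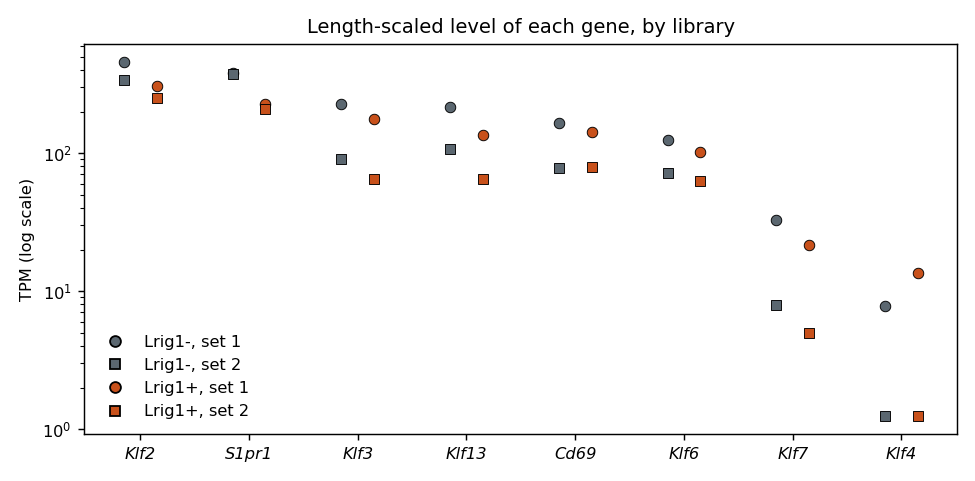
TPM (vertical axis, log scale) of the 8 genes in the 4 libraries, ordered by mean. Grey is Lrig1-, orange is Lrig1+, circles are set 1 and squares are set 2. *Klf2* and *S1pr1* lie above 200 TPM in every library, *Klf3*, *Klf13*, *Cd69* and *Klf6* intermix, and *Klf7* and *Klf4* lie lowest.

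*Klf3* and *Cd69* also have more than 1 transcript in the tables. For *Klf3*, a transcript of 4169 bases that starts at position 64812323, downstream of the other starts, took 88.1% to 97.2% of the counts in the 4 libraries. For *Cd69*, the longer transcript (2465 bases) took 11.6% and 11.4% of the counts in the groups of set 1 and 0.787% and 1.37% in those of set 2. The share of a second *Klf3* transcript (2314 bases) was 4.52% and 8.42% in the Lrig1- and Lrig1+ T cells of set 1 and 0.178% and 0.493% in set 2, so it differed between the sets. It was higher in Lrig1+ T cells in each set, but the shares in set 2 rest on 25 and 49 estimated counts. A difference in share between the groups was not tested. *Klf2*, *Klf4*, *Klf6*, *Klf13* and *S1pr1* each have 1 transcript in the tables.

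Of the 11 other Klf genes listed, 7 were tested, and 4 of them were higher and 0 lower in both sets. Of these 7, 0 were called lower and 3 higher with the set term (*Klf9*, *Klf10* and *Klf12*), and 0 were called in either direction without it. *Klf9*, a glucocorticoid-induced factor, had 4.26 and 10.2 CPM in the Lrig1- and Lrig1+ T cells of set 1 and 3.31 and 8.44 CPM in set 2. Its log2 fold change was 1.31 (standard error 0.15, adjusted p = 9.69e-04, quasi-likelihood test), and the groups did not overlap. *Klf10*, which TGF-β is known to induce, had 14.3 and 23.0 CPM in set 1 and 19.5 and 25.0 CPM in set 2, a log2 fold change of 0.52 (adjusted p = 0.0134, same test). *Klf12* was near the low end, at 1.36 and 2.88 CPM in set 1 and 0.667 and 1.48 CPM in set 2, from 36 to 150 counts (adjusted p = 0.0370, same test). Neither *Klf10* nor *Klf12* passed without a filter on low counts (adjusted p = 0.0748 and 0.0942, quasi-likelihood test). The most abundant of the other Klf genes, *Klf16*, had 39.2 to 51.8 CPM in the 4 libraries and a log2 fold change of 0.01 (adjusted p = 0.941, same test). How reads shared by Klf genes were assigned is not given in the sources used here.

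**Figure D4:**
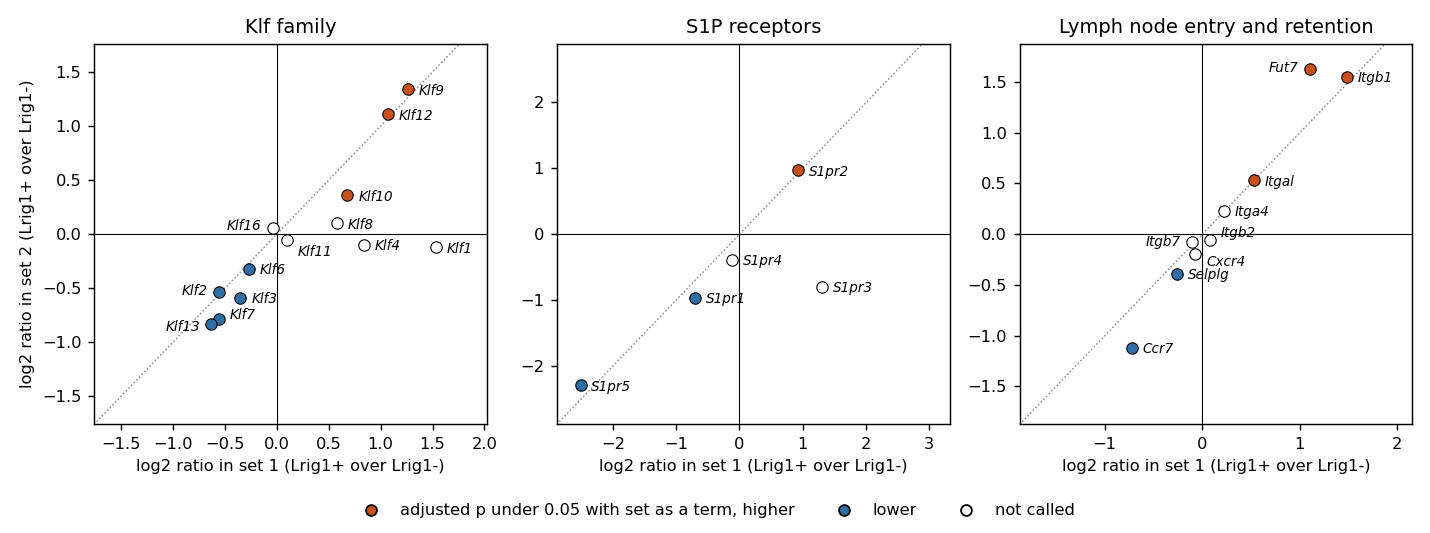
Log2 ratio, Lrig1+ over Lrig1-, in set 1 (horizontal axis) and set 2 (vertical axis) for tested genes of 3 lists, with the line of equality dotted. Orange marks genes called higher and blue those called lower when set is a term (adjusted p under 0.05), and white marks genes not called. *Klf2*, *Klf3*, *Klf6*, *Klf7* and *Klf13* lie together at lower left, *Klf9*, *Klf10* and *Klf12* at upper right, *S1pr1* and *S1pr5* opposite to *S1pr2*, and *Ccr7* and *Selplg* opposite to *Itgb1*.

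Among the other S1P receptors, the direction was mixed. With the set term 1 of 4 was called higher and 1 lower. *S1pr2*, which couples to inhibition of migration, had 12.7 and 24.2 CPM in the Lrig1- and Lrig1+ T cells of set 1 and 15.5 and 30.4 CPM in set 2. It was 1.91-fold and 1.96-fold higher, and its log2 fold change was 0.95 (standard error 0.10, adjusted p = 4.51e-04, quasi-likelihood test). The groups did not overlap. *S1pr5*, an egress receptor of NK cells, had 0.835 and 0.115 CPM in set 1 and 3.89 and 0.766 CPM in set 2, from 6 to 210 counts (log2 fold change -2.50, adjusted p = 0.00315, same test). Of the 7 NK cell markers given below, 6 were also lower in both sets, while *Eomes* was higher in both. The part of NK cells in the level of *S1pr5* was not tested. *S1pr4*, the most abundant after *S1pr1*, had 155 and 143 CPM in set 1 and 222 and 169 CPM in set 2 and was not called (log2 fold change -0.26, adjusted p = 0.0732, same test, and 0.0420 with DESeq2's size factors). *S1pr3* had at most 3.15 CPM, and its log2 ratio was above 0 in set 1 and -0.80 in set 2.

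Genes that make, move or break down S1P gave few calls. Of 9 listed, 7 were tested, and 1 was called higher and 1 lower with the set term. *Sgpl1*, the S1P lyase, had 78.9 and 89.8 CPM in set 1 and 123 and 130 CPM in set 2 (adjusted p = 0.220, quasi-likelihood test). The called genes were *Plpp1*, a lipid phosphatase, at 0.188 and 2.71 CPM in set 1 and 0.648 and 4.46 CPM in set 2, and the S1P phosphatase *Sgpp1*, at 93.7 and 79.7 CPM and 135 and 97.8 CPM. Of 9 genes that act after the receptor, 1 was called higher (*Gna12*, log2 fold change 0.76) and 2 lower (*Arrb2*, -0.38, a β-arrestin, and *Dnm2*, -0.31, a dynamin of endocytosis). *Sgpp1* and *Dnm2* did not pass without a filter on low counts (adjusted p = 0.0886 and 0.0780, quasi-likelihood test). *Gnai2*, the G protein subunit through which S1PR1 signals, was level at 600 and 611 CPM in set 1 and 867 and 850 CPM in set 2. The receptor kinase gene *Grk2*, whose product turns S1PR1 off, had 704 and 658 CPM in set 1 and 562 and 491 CPM in set 2 (log2 fold change -0.15, adjusted p = 0.293, quasi-likelihood test).

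The genes for entry into and stay in lymph nodes did not move as a block. Of 10 listed, 3 were called higher and 3 lower with the set term, and their median log2 ratio was 0.01 in set 1 and -0.07 in set 2. *Ccr7*, the receptor for lymph node chemokines, followed *S1pr1*, with 410 and 249 CPM in set 1 and 747 and 344 CPM in set 2 (log2 fold change -0.92, standard error 0.11, adjusted p = 0.00120, quasi-likelihood test). *Selplg* was also called lower (log2 fold change -0.32). Higher were the integrin genes *Itgb1*, with 168 and 470 CPM in set 1 and 240 and 706 CPM in set 2, and *Itgal* (log2 fold change 0.53), and *Fut7* (1.39), a fucosyltransferase that makes selectin ligands. *Cxcr4*, *Itgb2*, *Itga4* and *Itgb7* were not called. *Selplg* and *Fut7* did not pass without a filter on low counts (adjusted p = 0.109 and 0.0554, quasi-likelihood test).

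The tissue residency list, in which *Cd69* is the usual surface marker, was split. Of 9 genes other than *Cd69* that were tested, 4 were called higher and 4 lower with the set term. *Itgae*, the CD103 integrin chain found on resident and regulatory T cells, had 6.68 and 58.1 CPM in set 1 and 8.05 and 58.0 CPM in set 2, in the Lrig1- and Lrig1+ T cells. *Rgs1*, *Ahr* and *Bhlhe40* were the other genes called higher. *Cxcr6* was lower, at 47.1 and 11.6 CPM in set 1 and 110 and 20.0 CPM in set 2, as were *Itga1*, *Rgs2* and *Xcl1*. *Rgs2*, *Xcl1* and *Rgs1* did not pass without a filter on low counts (adjusted p = 0.0884, 0.0662 and 0.0570, quasi-likelihood test).

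Of 10 known upstream regulators of *Klf2*, 7 were lower in both sets, and with the set term 5 were called lower and 0 higher. *Foxo1*, which activates *Klf2*, had 423 and 337 CPM in set 1 and 508 and 376 CPM in set 2, without overlap of the groups (log2 fold change -0.38, adjusted p = 0.0158, quasi-likelihood test). *Mef2a* had 89.1 and 63.2 CPM in set 1 and 72.4 and 42.9 CPM in set 2 (log2 fold change -0.63, adjusted p = 0.00207, same test). *Mapk7*, the gene for ERK5, and its kinase gene *Map2k5* had log2 fold changes of -0.06 each and were not called. *Mef2c*, a gene that B cells also express, had 6.29 and 3.71 CPM in set 1 and 35.9 and 14.1 CPM in set 2, the largest difference in this list (log2 fold change -1.10, adjusted p = 0.00223, same test). *Foxo3* was also called lower (log2 fold change -0.24). Neither *Foxo1* nor *Foxo3* passed without a filter on low counts (adjusted p = 0.0646 and 0.117, quasi-likelihood test). Of the 10 cofactors and turnover factors listed, *Fhl3*, whose product binds KLF3, was called higher (log2 fold change 0.62), and *Crebbp* and *Smurf1* were called lower (-0.46 and -0.44), *Crebbp* not without a filter (adjusted p = 0.0718, quasi-likelihood test).

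Klf genes and *Cd69* also respond within minutes to handling and stimulation, so 19 immediate early genes were set beside them. With the set term 5 were called higher and 2 lower, with a median log2 ratio of 0.00 in set 1 and 0.01 in set 2. The 2 called lower, *Jun* and *Ier2*, did not pass without a filter on low counts (adjusted p = 0.122 and 0.0879, quasi-likelihood test). Their summed level was 3466 and 3664 CPM in set 1 and 2655 and 2802 CPM in set 2, in the Lrig1- and Lrig1+ T cells. *Fos* was level between the groups, at 150 CPM in each group of set 1 and at 86.1 and 84.2 CPM in set 2. *Fosb* and *Egr2* were higher in Lrig1+ T cells, with log2 fold changes of 1.01 and 1.81. The list was higher in set 1 than in set 2 in both groups, as was *Klf4*, and its part in the level of *Klf4* was not tested.

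Of the 5 Treg markers 5 were called higher with the set term, and of the 8 T cell markers 1 was. Markers of other cell types differed between the groups too. The 11 B cell markers, 8 of them lower in both sets, summed to 76.3 CPM in Lrig1- T cells of set 1, with a higher sum in Lrig1+, and to 770 and 389 CPM in set 2. The higher sum in set 1 came mainly from *Cd22* (16.2 and 32.8 CPM) and *Cd79b* (6.85 and 13.5 CPM), and the median log2 ratio of the list was -0.09 in set 1 and -1.15 in set 2. With the set term 3 were called lower and 0 higher. The 11 myeloid markers, 6 of them lower in both sets, summed to 112 and 68.1 CPM in set 1 and to 396 and 261 CPM in set 2. The largest decreases in CPM were those of *Ccr2* (28.7 and 7.75 in set 1, 45.1 and 11.4 in set 2), *Ly6c2* and *Mpeg1*. Higher in both sets were 2, *Cd14* and *Csf1r*, the latter at 6.39 and 13.2 CPM in set 1 and 32.2 and 65.9 CPM in set 2. With the set term 5 of them were called lower and 1 higher (*Csf1r*), and their part in the level of *Klf4* was not tested. The 7 NK cell markers, 6 of them lower in both sets, summed to 63.9 and 48.6 CPM in set 1 and to 177 and 115 CPM in set 2. The sum includes *Eomes*, a transcription factor, which was called higher, at 4.20 and 24.1 CPM in set 1 and 9.18 and 41.3 CPM in set 2. Called lower were 5 others, among them *Klrk1*, at 17.3 and 1.79 CPM in set 1 and 23.0 and 4.42 CPM in set 2, and the median log2 ratio of the list was -1.24 in set 1 and -1.36 in set 2. The CD8 genes *Cd8a* and *Cd8b1* summed to 19.5 and 14.1 CPM in set 1 and to 97.3 and 51.6 CPM in set 2. Both were called lower with the set term (adjusted p = 0.0366 and 0.00278, quasi-likelihood test). Of the endothelial markers, *Pecam1*, which T cells also express, was at 149 to 214 CPM, *Cdh5* and *Kdr* were at most 2.63 CPM, all 3 were lower in Lrig1+ T cells in both sets, *Pecam1* and *Cdh5* were called lower with the set term (log2 fold changes -0.40 and -2.41), *Tie1* was at 0 in 3 libraries and *Emcn* in all 4. Erythroid markers summed to 6.73 to 73.8 CPM and platelet markers to 0.111 to 2.99 CPM. Among these marker calls, those of *Cd5*, *Fcrla*, *Ms4a1*, *Cr2*, *S100a8*, *Nkg7*, *Klra8*, *Cd8a* and *Pecam1* did not pass without a filter on low counts (adjusted p = 0.0655 to 0.163, quasi-likelihood test). The part of these cell types, and of naive, regulatory and other T cell fractions, in the members' levels was not tested.

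The genes most like *Klf2* in their levels over the 4 libraries, by the distance between log2 CPM profiles centred on their means, were *Slc25a16*, *Ccdc71l* and *Mast1* (distances 0.0468, 0.0695 and 0.0722 on the log2 scale). Those most like *S1pr1* were *Gsn*, *Emb* and *Nuak2* (0.0513, 0.0921 and 0.0938). They were taken from 12784 genes with a mean of at least 50 counts, over 4 libraries.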

How the data were processed

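RNA of splenic T cells, CD4+Lrig1+ or CD4+Lrig1-, was sequenced as stranded mRNA libraries. Per the labels, the authors used Trimmomatic 0.38, HISAT2 2.1.0, Bowtie2 2.3.4.1, StringTie 2.1.3b and GRCm38. The deposited estimated counts (129299 transcripts) are not normalized, and the deposited FPKM and TPM values were scaled by the authors per transcript length and library. The 6 value columns of a further table, whose names give no group, were not used.

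Here estimated counts were summed per gene, rounded, filtered with filterByExpr, normalized by TMM and tested with the quasi-likelihood test of edgeR 4.0.16 in R 4.3.3, group only, with Benjamini-Hochberg adjustment. The fit with a term for the table, DESeq2 1.42.0, edgeR's exact test, limma 3.58.1 with pseudocounts of 1 and 0.1 added to FPKM, other filters and scalings, and leaving out each library were alternatives. Log2 ratios inside a set used a prior count of 2. Members, gene lists, marker lists and the table term were chosen with earlier results of these data known. Genes named are the members, *Lrig1*, genes of the lists, and the 3 nearest to *Klf2* and *S1pr1*. Some genes of the lists enter the counts but are not reported here by name. The procedure was tested on simulated counts. Columns carry no replicate numbers, and depth was 44865070 to 59977951 counts. Files were read with Python 3.11.15.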

Additional observations from a re-analysis of the deposited data

How the results depend on the processing

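No paired analysis was possible by replicate number because the columns carry none. Libraries were paired only by the table that holds them (set as a term), with 1 residual degree of freedom. The group-only test called 0 genes. Adding set as a term to edgeR's test gave 2358 genes higher and 2056 lower with TMM, 2208 and 2388 with DESeq2's size factors, and 1304 and 820 without a filter on low counts. With that term DESeq2's Wald statistic gave 1726 higher and 1702 lower, and limma on log2(FPKM + 1) gave 1911 and 1016. On the groups alone the Wald statistic gave 277 and 43 and edgeR's exact test gave 196 and 17, while the other planned fits called 0. Fits that left out 1 library called 1 to 88 genes higher and 0 to 2 lower.

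Of the members, 6 were called lower in each fit with the set term, except that 4 were without a filter, when *Klf3* and *Klf6* were lost. In all fits 0 members were called higher, and without the set term 0 were called lower. *S1pr1*, *Klf2*, *Klf13* and *Klf7* were called in 5 of 5 fits with that term. With each library left out in turn, the log2 fold change of *Klf4* ran from -1.23 (without the CD4+Lrig1+ library of set 1) to 1.85, and that of *Cd69* from -0.26 to 0.06 (without the CD4+Lrig1- library of set 1). The difference between sets enters these fits, since they have no term for it. Leaving out set 1's CD4+Lrig1+ library gave -1.30 for *Klf7*, -0.78 for *Klf3*, -0.56 for *S1pr1* and -0.30 for *Klf2*, and leaving out its CD4+Lrig1- library gave -0.06, -0.20, -1.18 and -0.69. Leaving out set 2's CD4+Lrig1+ library gave -0.17, -0.17, -1.19 and -0.78, and leaving out its CD4+Lrig1- library gave -1.03, -0.63, -0.37 and -0.31, in the same order. The other 6 members kept their direction in all 17 alternatives, though not their size. Of the 71 list genes called with the set term, 69 were called with DESeq2's size factors, 45 were called without a filter, and 0 changed direction with those size factors. Low counts limit *Klf4* in set 2, *Klf12* and *S1pr5*. They also limit *Plpp1*, *Itga1* and *Cdh5*, which had 9, 7 and 19 counts in their lowest libraries.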
